A study of Mus musculus with 47 samples.

Results

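The genes described here are the mouse enzymes that attach a polar group to foreign or endogenous small molecules, or that split esters ahead of such a step. They were taken by symbol from the deposited expression table, without pseudogenes. The families were the UDP-glucuronosyltransferases (Ugt), the glutathione S-transferases other than the microsomal ones (Gst), the sulfotransferases (Sult) and the carboxylesterases (Ces). Members had a mean of at least 0.1 TPM (transcript abundance scaled for length and to a fixed total per library) over all 47 libraries. Of 54532 genes in the table, 83 carried such a symbol and 52 reached that mean. The 52 were 8 of 21 Ugt, 21 of 22 Gst, 10 of 21 Sult and 13 of 19 Ces symbols. The lowest members were Ces1g at 0.135 TPM and Ces1c at 0.153 TPM, and the highest symbol left out was Ces2c at 0.0868 TPM.

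The libraries were made from polyA RNA of dissected mouse olfactory epithelium at postnatal days 0, 3, 5, 7, 10, 14 and 21 (P0 to P21). Mice of the group called Kir here carry the strain label OIVT;Kir2.1, and wild-type (WT) mice carry the label C57BL/6J. Kir2.1 is an inwardly rectifying potassium channel encoded by Kcnj2; the sources used here name neither the driver of the transgene nor the cells that express it. There were 4 Kir and 4 WT libraries at P0, 3 and 3 at P3, 3 and 3 at P5, 4 and 4 at P7, 4 and 3 at P10, 3 and 3 at P14, and 3 and 3 at P21. Whether each library is a separate animal is not stated in the labels, and p-values measure only the spread between libraries, which may be technical.

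Kcnj2 ranged from 33.0 to 449 TPM in the 24 Kir libraries and from 8.93 to 31.2 TPM in the 23 WT libraries, and the lowest Kir library lay above the highest WT library. Summed gene counts ran from 8107547 to 30385151 per library. The library titles start with cry3, cry4 or cry6, a prefix whose meaning is not given. All P0, P3, P14 and P21 libraries carry cry4, all P5 and P10 libraries carry cry6, and P7 holds all 3 prefixes in both genotypes. The comparison of P21 with P0 therefore lies within 1 prefix, whereas the levels at P5 and P10 cannot be told apart from the prefix cry6. One WT library titled P0 carries the stage label P3 and was kept at P0. The labels give no sex; Xist was at 0.17 TPM or less in all 3 WT P21 libraries and at 58.7 TPM or more in every Kir P3 and Kir P10 library, and every other group held libraries below 1 TPM and libraries far above it.

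Glucuronosyltransferases transfer glucuronic acid from UDP-glucuronate, glutathione S-transferases add glutathione to electrophiles, and sulfotransferases transfer sulfate from PAPS. Carboxylesterases hydrolyse esters and amides and do not themselves conjugate, so the Ces genes are detoxifying enzymes of a different reaction within the same set. In the olfactory mucosa such enzymes are best known from sustentacular (supporting) cells and from Bowman's glands. They clear inhaled chemicals and can inactivate odorants.

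Figures and values are in TPM, which is scaled by transcript length, unless counts are named. Fold changes are from edgeR's quasi-likelihood test on the deposited gene counts, with Benjamini-Hochberg adjustment over 19927 genes and a threshold of 0.05. Of the 52 members, 43 had enough counts to be tested. The other 9 were Ces1c, Ces1g, Gsta1, Gstm3, Gstp2, Ugt1a1, Ugt1a6a, Ugt2a1 and Ugt2b36. All 52 were also tested with limma on log2(TPM + 1), among 28384 genes.

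The gene counts understate members whose exons lie inside another gene. Of the annotated exonic bases of Ugt2a1 and Ugt2a2 on chromosome 5, 98.83% and 94.49% overlap another gene. The 2 genes start apart and share later exons, and both also overlap Gm43638, a further gene on the same strand. Ugt2a1 accordingly averaged 1435 TPM but 3.51 counts per library, and Ugt2a2 averaged 1234 TPM but 210 counts. RSEM, which made the TPM values, divides shared reads between transcripts by an estimate. Ugt2a1 is read here from TPM alone, and how shared reads are divided among Ugt2a1, Ugt2a2 and Gm43638 depends on that estimate. Counts and TPM also differed for some members without such overlap. Mean counts were 0.33 times those expected from TPM in Gsta2 and 3.44 times in Ces1d, and the cause was not tested.

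The upstream sequence of 8 members is printed first, from RefSeq on GRCm38.p6, as the 250 bases before the annotated start, 5′ to 3′ on the gene's strand. A RefSeq window was found for 45 of the 52 members, 56 windows in all. Ugt2a1 and Ugt2a2 are shown because they share a locus and are the most abundant Ugt genes. Their windows hold 30.8% and 32.4% G and C, against a median of 49.4% over the 56 member windows.
Ugt2a1 (chr5:87490872-87491121, minus strand): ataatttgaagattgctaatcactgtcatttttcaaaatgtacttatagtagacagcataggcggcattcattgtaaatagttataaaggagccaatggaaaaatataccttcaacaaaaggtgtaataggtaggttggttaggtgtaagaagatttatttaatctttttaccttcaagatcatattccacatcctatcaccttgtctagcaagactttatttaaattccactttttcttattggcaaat
Ugt2a2 (chr5:87482259-87482508, minus strand): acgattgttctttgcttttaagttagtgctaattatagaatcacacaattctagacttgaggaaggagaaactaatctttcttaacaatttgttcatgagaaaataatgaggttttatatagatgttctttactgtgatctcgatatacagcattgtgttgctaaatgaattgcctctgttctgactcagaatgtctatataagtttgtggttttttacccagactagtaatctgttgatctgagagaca

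Sult1c1 with Sult1c2 on chromosome 17 and Ces1a with Ces1b on chromosome 8 are shown because the genes of each pair are the nearest coding neighbours of each other and changed in opposite directions with age, as described below. Their windows hold 46.4% to 50% G and C.
Sult1c1 (chr17:53990632-53990881, minus strand): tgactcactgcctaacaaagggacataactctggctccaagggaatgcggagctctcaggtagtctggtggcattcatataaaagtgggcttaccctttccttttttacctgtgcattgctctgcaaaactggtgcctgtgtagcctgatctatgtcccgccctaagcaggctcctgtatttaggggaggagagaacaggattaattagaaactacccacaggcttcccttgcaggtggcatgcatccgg
Sult1c2 (chr17:53845959-53846208, minus strand): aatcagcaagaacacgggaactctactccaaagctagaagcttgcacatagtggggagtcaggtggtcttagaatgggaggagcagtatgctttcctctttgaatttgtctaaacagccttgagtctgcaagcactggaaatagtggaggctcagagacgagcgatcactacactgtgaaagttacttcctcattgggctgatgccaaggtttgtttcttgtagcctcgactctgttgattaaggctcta
Ces1a (chr8:93048193-93048442, minus strand): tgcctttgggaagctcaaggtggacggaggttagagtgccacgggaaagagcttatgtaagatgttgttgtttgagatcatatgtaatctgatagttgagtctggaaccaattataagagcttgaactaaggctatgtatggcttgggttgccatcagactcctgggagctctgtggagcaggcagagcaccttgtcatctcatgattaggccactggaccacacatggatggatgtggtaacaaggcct
Ces1b (chr8:93080018-93080267, minus strand): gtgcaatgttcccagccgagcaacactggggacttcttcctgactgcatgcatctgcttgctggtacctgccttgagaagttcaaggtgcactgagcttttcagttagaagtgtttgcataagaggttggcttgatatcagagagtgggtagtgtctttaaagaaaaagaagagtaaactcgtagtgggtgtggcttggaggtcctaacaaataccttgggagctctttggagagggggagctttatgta

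Gsta3 and Gstm5 are shown because they hold the core of the antioxidant response element, TGACNNNGC, to which the stress-response factor NFE2L2 binds. Capitals mark matches on either strand to that core or to GCGTG, the core of the dioxin response element to which the aryl hydrocarbon receptor binds. Position -1 is the base before the start. In Gsta3 the antioxidant core begins at position -121. In Gstm5 it begins at position -42 and overlaps a dioxin core that begins at -38, and a further dioxin core begins at -171.
Gsta3 (chr1:21240335-21240584, plus strand): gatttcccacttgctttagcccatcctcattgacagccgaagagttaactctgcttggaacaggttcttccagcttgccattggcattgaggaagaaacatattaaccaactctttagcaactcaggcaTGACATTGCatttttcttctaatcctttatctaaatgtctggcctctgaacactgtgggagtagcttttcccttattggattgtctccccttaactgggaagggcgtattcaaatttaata
Gstm5 (chr3:107895604-107895853, plus strand): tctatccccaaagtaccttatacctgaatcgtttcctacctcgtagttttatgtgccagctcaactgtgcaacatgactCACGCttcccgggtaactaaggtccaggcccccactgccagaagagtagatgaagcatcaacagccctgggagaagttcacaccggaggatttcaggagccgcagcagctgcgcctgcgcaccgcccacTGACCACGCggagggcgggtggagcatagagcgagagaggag

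The antioxidant core was present in 3 of 56 member windows (5.357%), those of Gsta3, Gstm5 and Gstm7, and in 10.161% of 32851 windows of all genes. The dioxin core was present in 9 member windows (16.071%) and in 28.157% of all windows. These are matches of letters, not sites of binding.

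**Figure D1:**
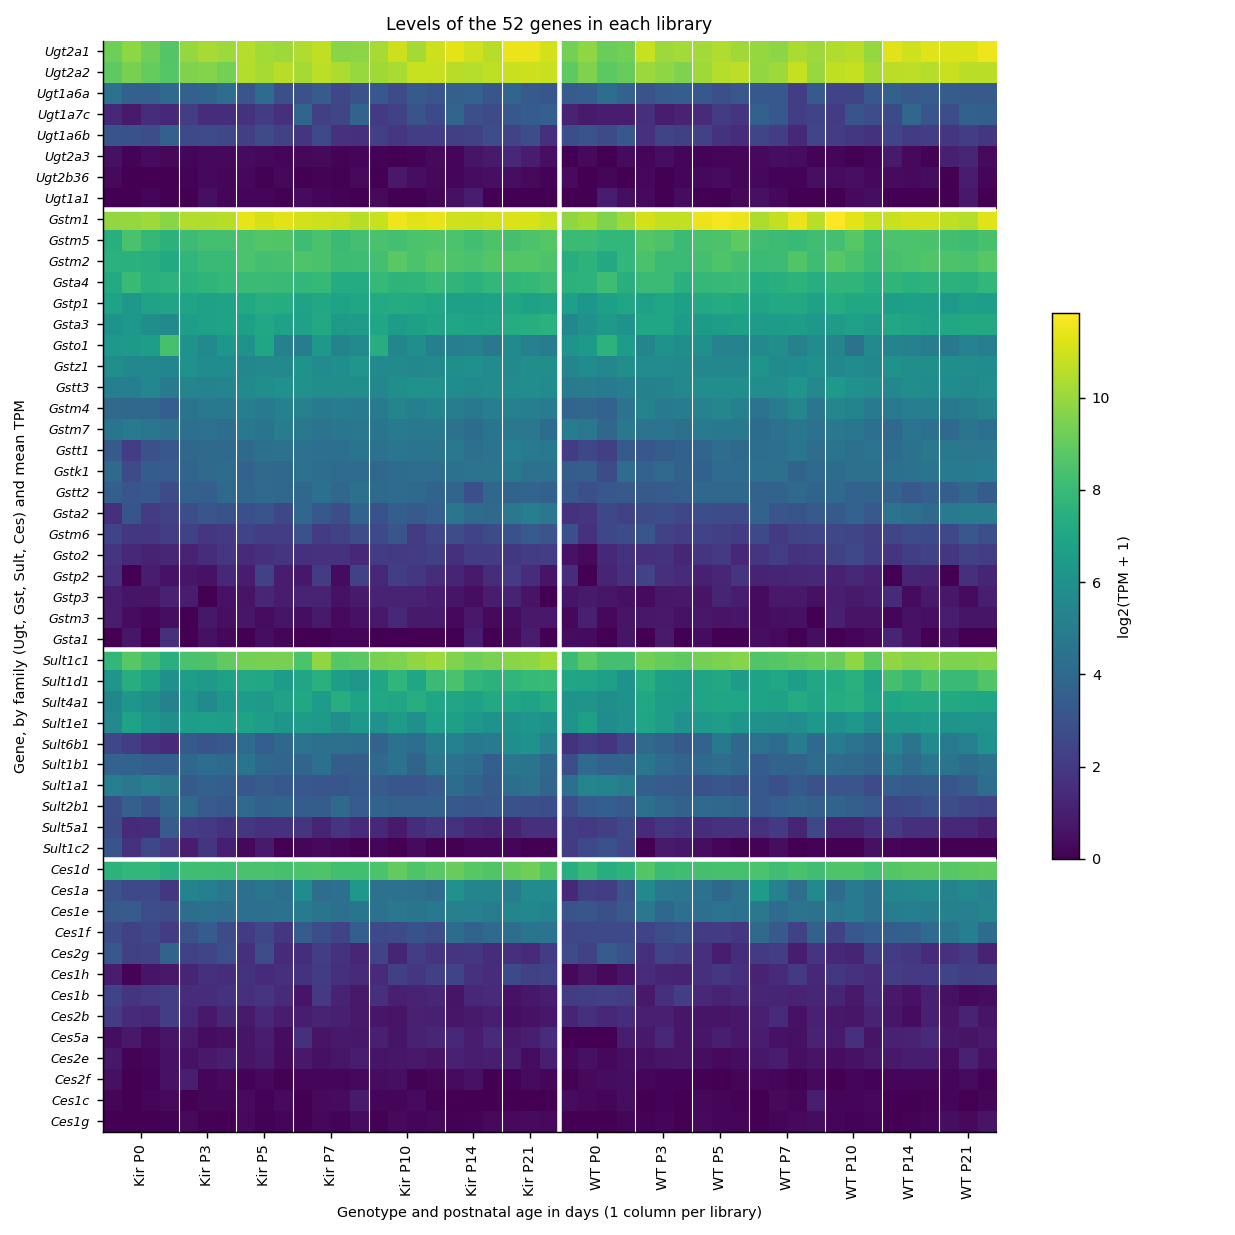
log2(TPM + 1) of the 52 genes (rows, by family and mean level) in each of the 47 libraries (columns, Kir left of WT, by postnatal age in days). Ugt2a1, Ugt2a2 and Gstm1 are the 3 rows above 1000 TPM on average, while 11 genes lie under 1 TPM.

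Mean levels ran from 0.135 to 1932 TPM. Gstm1, a mu-class glutathione transferase, was the highest, at rank 36 among all genes in the table. Ugt2a1, the olfactory glucuronosyltransferase, and Ugt2a2 followed at ranks 62 and 80. Sult1c1, an aryl sulfotransferase, averaged 607 TPM, and Ces1d, a carboxylesterase also known as a triacylglycerol hydrolase, averaged 349 TPM. In all, 12 members had means of at least 100 TPM and 28 of at least 10 TPM, and 11 lay under 1 TPM. Ugt2a1 and Ugt2a2 together held 99.4% ± 0.0347 of the summed Ugt TPM in Kir P21 and 99.4% ± 0.128 in WT P21 (SD, n = 3 each), and Ces1d held 81.2% ± 3.70 and 80.4% ± 1.91 of the summed Ces TPM in the same groups. Gstm1 held 57.0% ± 4.23 of the summed Gst TPM in Kir P21 and 47.6% ± 4.62 in Kir P0, and 56.0% ± 4.70 in WT P21 and 47.8% ± 5.75 in WT P0. Sult1c1 held 64.1% ± 3.33 of the summed Sult TPM in Kir P21 and 48.8% ± 2.72 in Kir P0. In WT the share of Sult1c1 shifted less, with 56.8% ± 3.05 at P21 and 52.4% ± 3.83 at P0 (SD, n = 3 at P21 and 4 at P0).

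The members as a set took a larger part of the transcriptome at P21 than at P0. Their summed level was 1.04% ± 0.0590 of all TPM in Kir P21 and 0.404% ± 0.0610 in Kir P0, and 0.932% ± 0.109 in WT P21 and 0.419% ± 0.0543 in WT P0 (SD, n = 3 at P21 and 4 at P0). In both genotypes every P21 library lay above every P0 library. The Ugt share of the members' sum was 43.4% ± 1.67 in Kir P21 and 28.8% ± 3.48 in Kir P0, and 44.8% ± 1.33 in WT P21 and 30.0% ± 2.74 in WT P0. The Gst share was 36.0% ± 0.880 in Kir P21 and 51.5% ± 5.62 in Kir P0, and 34.7% ± 2.19 in WT P21 and 49.3% ± 3.87 in WT P0. In a bulk tissue, more cells of a type and more RNA per cell cannot be told apart.

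**Figure D2:**
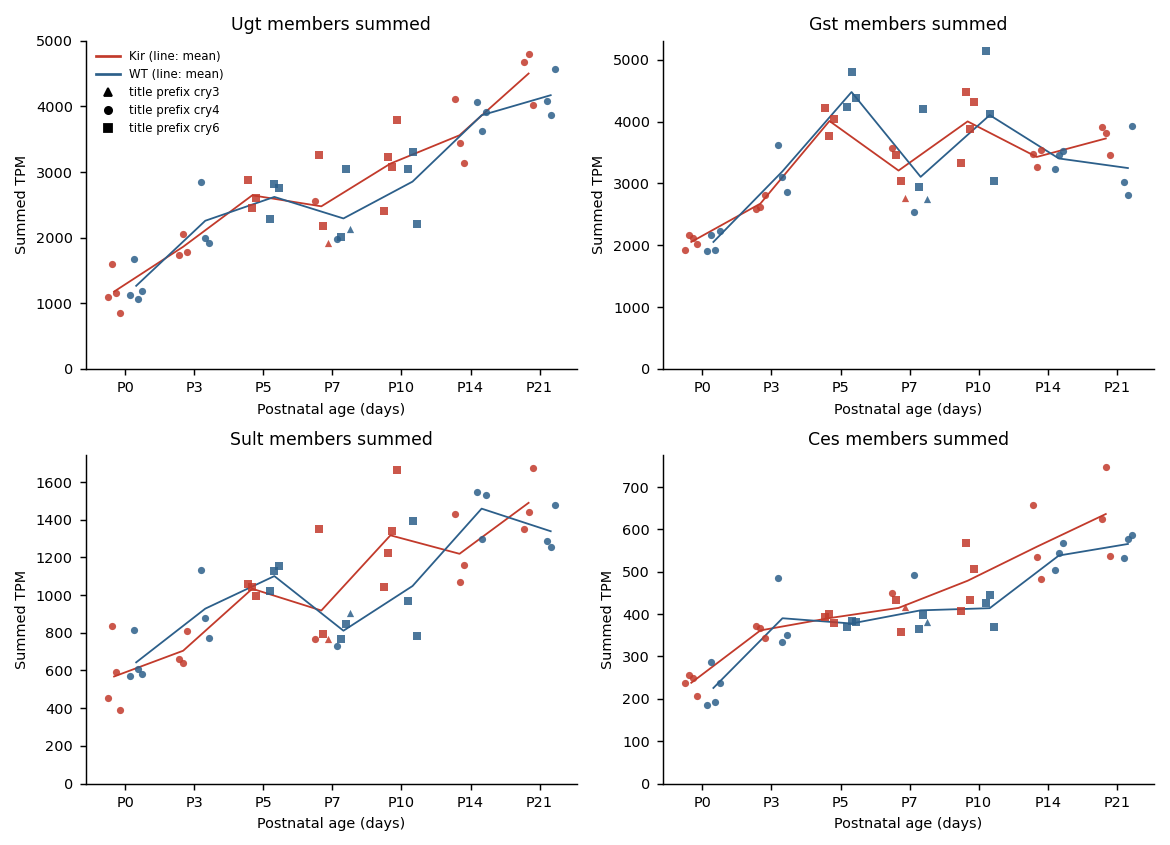
Summed TPM of the members of each family in every library by postnatal age (Kir left of WT at each age; lines join group means; symbols give the title prefix). The Ugt sum averages 4502 TPM in Kir P21 and 1178 TPM in Kir P0, and the Gst sum averages 4009 TPM in Kir P5 and 4002 TPM in Kir P10, ages whose libraries all carry cry6.

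Across the 7 ages the summed Ugt level in WT was 1266 ± 278, 2258 ± 519, 2621 ± 291, 2293 ± 511, 2854 ± 575, 3866 ± 223 and 4172 ± 363 TPM from P0 to P21 (SD, n = 3 to 4). In Kir it was 1178 ± 313, 1861 ± 173, 2646 ± 216, 2478 ± 583, 3129 ± 573, 3561 ± 496 and 4502 ± 422 TPM over the same ages. The mean summed Gst level was highest at P5 in both genotypes, an age with cry6 libraries only. In Kir it was 4009 ± 230 TPM at P5 and 4002 ± 514 TPM at P10, and in WT 4477 ± 292 and 4104 ± 1051 TPM. At P0, P3, P14 and P21, which are all cry4, it was 2053 ± 109, 2672 ± 129, 3427 ± 147 and 3726 ± 241 TPM in Kir. In WT it was 2052 ± 165, 3195 ± 389, 3403 ± 156 and 3248 ± 592 TPM at those 4 ages. Among them the Kir mean was highest at P21 and the WT mean at P14. Gstm1 averaged 2463 ± 295 TPM at P5 and 2473 ± 508 TPM at P10 in Kir, and 2983 ± 262 and 2695 ± 891 TPM in WT. The P5 and P10 libraries all carry cry6, and at P7 Gstm1 ranged from 1718 to 2821 TPM in the 4 cry6 libraries, overlapping 1331 to 2160 TPM in the 2 cry4 libraries and above the 1498 to 1543 TPM of the 2 cry3 libraries.

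The comparison of P21 with P0 asks how the set changed over postnatal maturation. In Kir, 31 of 43 tested members passed the test, 23 higher and 8 lower at P21, against 48.9% of all genes tested (22.9% higher and 25.9% lower). In WT, 29 of 43 passed, 20 higher and 9 lower, against 50.8% of all genes tested (24.0% higher and 26.8% lower). The members' median log2 fold change was 0.99 in Kir and 0.83 in WT, beside -0.04 and -0.05 over all genes. By family, 3 of 4 tested Ugt genes were higher and 1 lower in Kir, against 2 higher and none lower in WT. Of 18 Gst genes, 10 were higher and 1 lower in Kir, and 9 higher and 2 lower in WT. Sult genes went both ways, with 4 higher and 3 lower of 10 in Kir and 4 and 4 in WT, and of 11 Ces genes 6 were higher and 3 lower in Kir and 5 and 3 in WT.

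The Kir and WT comparisons share no libraries, although they were fitted together. Of the calls, 19 members were higher in both and 7 lower in both, and none was called in opposite directions. Those 19 are 82.6% of the 23 Kir calls and 95% of the 20 WT calls. Of all genes called higher at P21, 79% of the Kir calls and 75.7% of the WT calls were shared. The 7 are 87.5% of the lower Kir calls and 77.8% of the lower WT calls. Of all genes called lower at P21, a similar part was shared, 80.5% of the Kir calls and 77.8% of the WT calls. Gstm5, Gstm6, Ces5a, Ugt2a3 and Ugt1a6b passed in Kir alone, and Gsto2, Gstm7 and Sult2b1 in WT alone. Of these, 3 Kir calls rest on single libraries: Ugt2a3 was lost without Kir P0 replicate 1, 2 or 4 or Kir P21 replicate 1, Ces5a without Kir P0 replicate 2 or 4 or Kir P21 replicate 3, and Ugt1a6b without Kir P0 replicate 4 or Kir P21 replicate 3. A test of the difference between the 2 age changes called none of the 43 members, against 0.286% of all genes. Sult2b1 alone of the 43 had an unadjusted p under 0.05 (edgeR, 0.0303). All genes were not counted at that level, so this value stands without a background. On the TPM scale limma called 34 of 52 members in WT, 25 higher and 9 lower, against 31.9% of genes (18.1% higher and 13.7% lower). By library, the TPM of 25 of 52 members lay wholly above P0 at P21 in Kir and of 6 wholly below, against 15.8% and 14% of genes, and in WT of 25 above and 9 below, against 18.1% and 13.5%.

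**Figure D3:**
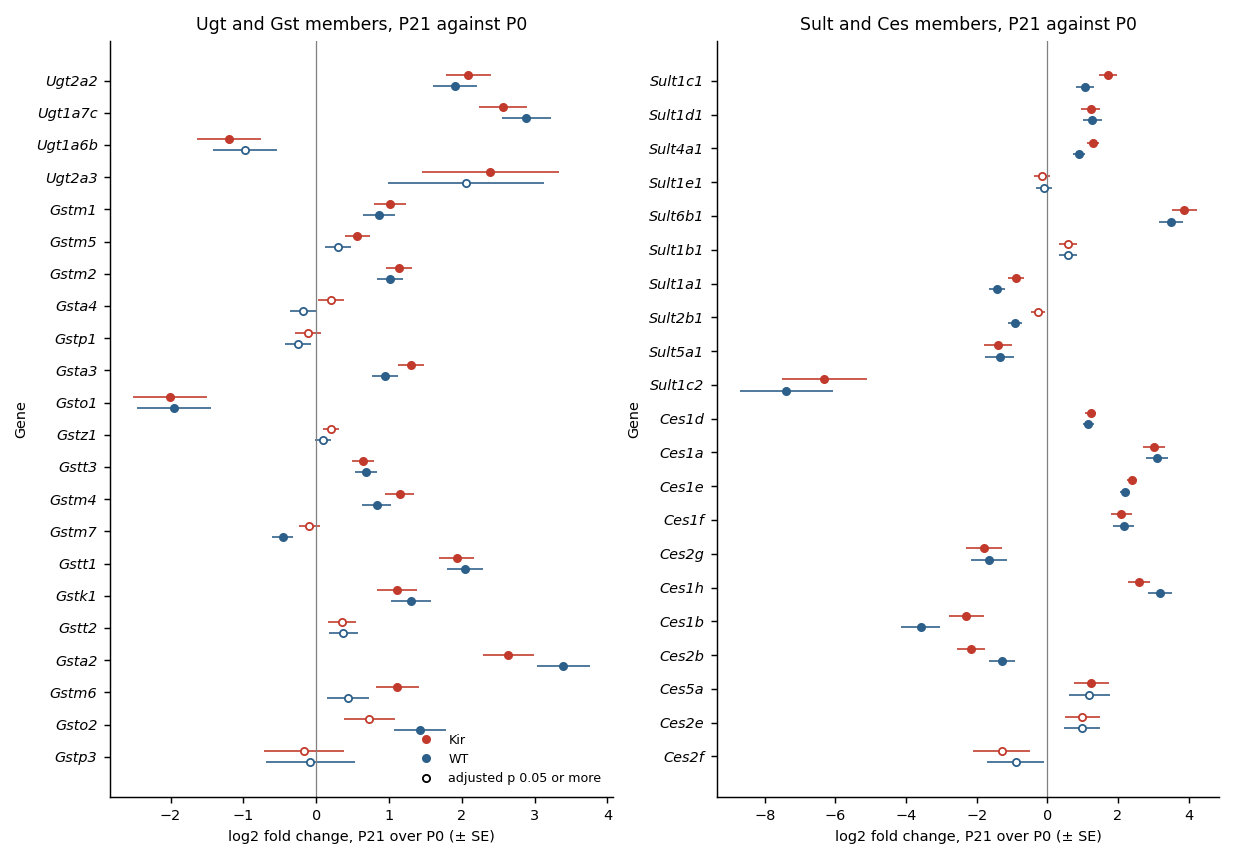
log2 fold change of P21 over P0 (± SE) from edgeR for the 43 tested members, Kir above WT in each row, with open circles where the adjusted p was 0.05 or more. The falls of Sult1c2, Ces1b, Gsto1, Ces2g and Sult1a1 stand against rises of most other called members in both genotypes.

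Ugt2a1 and Ugt2a2 were both higher at P21 than at P0 in both genotypes. Ugt2a1 measured 2843, 2817 and 2168 TPM in Kir P21, against 591, 905, 614 and 409 TPM in Kir P0. In WT it measured 2260, 2265 and 2977 TPM at P21, against 643, 910, 576 and 633 TPM at P0. The ages did not overlap in either genotype. The difference in log2(TPM + 1) of Ugt2a1 was 2.10 ± 0.25 in Kir (limma, adjusted p = 4.26e-08) and 1.87 ± 0.25 in WT (adjusted p = 3.36e-07). Ugt2a2 measured 1811, 1961 and 1830 TPM in Kir P21 and 470, 678, 529 and 416 TPM in Kir P0. In WT, Ugt2a2 measured 1803, 1570 and 1571 TPM at P21 and 471, 747, 463 and 535 TPM at P0. On the log2(TPM + 1) scale Ugt2a2 was 1.86 ± 0.19 higher in Kir (limma, adjusted p = 1.66e-09) and 1.60 ± 0.19 higher in WT (adjusted p = 3.12e-08).

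The ratio of Ugt2a1 to Ugt2a2 TPM varied among libraries. Its median was 1.32 over the 28 cry4 libraries (range 0.907 to 1.90), 0.861 over the 17 cry6 libraries (0.646 to 1.53) and 0.952 over the 2 cry3 libraries, sets that also differ in age. At P7, the age with all 3 prefixes, it ran from 0.646 to 1.02 in 4 cry6 libraries, from 1.04 to 1.13 in 2 cry4 libraries and from 0.851 to 1.05 in 2 cry3 libraries. Within cry4 the median ratio was 1.23 at P0, 1.55 at P3, 1.49 at P14 and 1.44 at P21. Most exonic bases of the 2 genes overlap each other or Gm43638, so a ratio of their estimated levels carries the error of dividing shared reads. The part of that error in the spread of the ratio was not tested.

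The Ugt1a genes, which also share their last exons, lay far lower and changed unequally. Ugt1a7c was higher at P21, with 8.15, 9.86 and 11.2 TPM in Kir P21 against 1.58, 0.82, 1.93 and 1.54 TPM in Kir P0. In WT it had 5.85, 11.8 and 11.0 TPM at P21 against 1.24, 0.82, 0.91 and 0.88 TPM at P0. The log2 fold change of Ugt1a7c was 2.57 ± 0.33 in Kir (edgeR, adjusted p = 8.83e-08) and 2.88 ± 0.34 in WT (adjusted p = 1.13e-08). Ugt1a6a, a phenol glucuronosyltransferase, averaged 10.2 ± 3.11 TPM in Kir P21 and 15.0 ± 4.04 TPM in Kir P0, and 9.31 ± 0.538 TPM in WT P21 and 12.6 ± 3.84 TPM in WT P0. Those differences did not pass limma's test (adjusted p = 0.18 in Kir and 0.364 in WT). Ugt1a1, the bilirubin glucuronosyltransferase, averaged 0.153 TPM and 0.532 counts.

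Among the glutathione transferases the mu and alpha classes held the largest levels. Gstm1 measured 2360, 2229 and 1805 TPM in Kir P21 against 967, 986, 1104 and 850 TPM in Kir P0. In WT it measured 1665, 1453 and 2393 TPM at P21 against 920.5, 1128, 759 and 1138 TPM at P0. All P21 libraries lay above all P0 libraries. The log2 fold change of Gstm1 was 1.02 ± 0.22 in Kir (edgeR, adjusted p = 0.000283) and 0.86 ± 0.22 in WT (adjusted p = 0.00155); without the third WT P21 library the WT value was 0.50 and missed the threshold (adjusted p = 0.0774).

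Gstm2, on the same cluster of chromosome 3, averaged 392 ± 21.1 TPM in Kir P21 and 172 ± 19.9 TPM in Kir P0, and 378 ± 43.7 TPM in WT P21 and 181 ± 36.7 TPM in WT P0. It rose by 1.14 ± 0.18 on the log2 scale in Kir (edgeR, adjusted p = 2.82e-06) and by 1.01 ± 0.18 in WT (adjusted p = 1.48e-05). Gstm4 rose in both genotypes, by 1.14 ± 0.20 in Kir and 0.83 ± 0.20 in WT. Gstm5 measured 324, 362 and 414 TPM in Kir P21 against 176, 345, 232 and 194 TPM in Kir P0, and 300, 279 and 336 TPM in WT P21 against 267, 263, 226 and 225 TPM in WT P0. Its log2 fold change passed in Kir (0.56 ± 0.17, adjusted p = 0.00691) and did not in WT (0.30 ± 0.17, adjusted p = 0.149), and the 2 changes were not shown to differ. Gstm7 fell by 0.46 ± 0.14 in WT (adjusted p = 0.00866), a call that was lost without WT P0 replicate 1 or WT P21 replicate 1.

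The alpha class held the steepest Gst rise. Gsta2 measured 25.1, 32.0 and 25.6 TPM in Kir P21 against 2.12, 7.39, 3.10 and 4.10 TPM in Kir P0. In WT it measured 28.6, 29.7 and 31.4 TPM at P21 against 2.23, 2.55, 4.99 and 3.88 TPM at P0, again without overlap. The log2 fold change of Gsta2 was 2.64 ± 0.35 in Kir (edgeR, adjusted p = 1.17e-07) and 3.40 ± 0.36 in WT (adjusted p = 1.92e-09). Gsta3 averaged 168 ± 14.6 TPM in Kir P21 and 62.5 ± 11.7 TPM in Kir P0, and 138 ± 6.97 TPM in WT P21 and 63.2 ± 14.9 TPM in WT P0. It rose by 1.31 ± 0.18 on the log2 scale in Kir and by 0.95 ± 0.18 in WT (edgeR, adjusted p = 2.15e-07 and 3.49e-05). Gsta4, which conjugates the lipid aldehyde 4-hydroxynonenal, did not pass: it averaged 243 ± 29.1 TPM in Kir P21 and 197 ± 46.3 TPM in Kir P0, and 199 ± 22.3 TPM in WT P21 and 211 ± 47 TPM in WT P0.

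The theta-class gene Gstt1 averaged 29.4 ± 3.68 TPM in Kir P21 and 6.85 ± 2.53 TPM in Kir P0, and 25.2 ± 0.646 TPM in WT P21 and 5.19 ± 2.69 TPM in WT P0. It rose by 1.93 ± 0.24 on the log2 scale in Kir and by 2.05 ± 0.24 in WT (edgeR, adjusted p = 3.55e-08 and 1.73e-08). Gstk1, the mitochondrial and peroxisomal kappa enzyme, rose by 1.11 ± 0.27 in Kir and 1.30 ± 0.27 in WT. Gstp1, the pi-class enzyme, and Gstz1, which acts in tyrosine breakdown as maleylacetoacetate isomerase, did not pass in either genotype. Gstp1 averaged 117 ± 8.38 TPM in Kir P21 and 106 ± 18.6 TPM in Kir P0, and 92.1 ± 9.91 TPM in WT P21 and 99.9 ± 19.6 TPM in WT P0.

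Gsto1, an omega-class enzyme that can reduce dehydroascorbate, went the other way. It measured 48.3, 34.0 and 31.3 TPM in Kir P21 against 78.7, 81.3, 95.6 and 330 TPM in Kir P0, and 26.3, 37.0 and 32.5 TPM in WT P21 against 69.4, 86.4, 202 and 89.96 TPM in WT P0. One library in each P0 group lay far above the rest. Gsto1 fell by 2.01 ± 0.51 on the log2 scale in Kir (edgeR, adjusted p = 0.00136) and by 1.95 ± 0.51 in WT (adjusted p = 0.00179), and both calls held when each library was left out in turn. Without Kir P0 replicate 4 the Kir value was -1.19 (adjusted p = 0.0328). Its neighbour on chromosome 19, Gsto2, lay at 1.15 to 3.30 TPM on average in these groups, and rose by 1.43 ± 0.36 in WT (adjusted p = 0.0012).

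The sulfotransferases held the most opposed pair. Sult1c1 measured 838, 899 and 1140 TPM in Kir P21 against 226, 427, 293 and 175 TPM in Kir P0, and 754, 735 and 787 TPM in WT P21 against 268, 445, 320 and 321 TPM in WT P0. It rose by 1.71 ± 0.26 on the log2 scale in Kir (edgeR, adjusted p = 1.69e-06) and by 1.05 ± 0.26 in WT (adjusted p = 0.000955). Sult1c2, its neighbour on chromosome 17, had 2, 0 and 0 counts in Kir P21 against 99, 26, 84 and 38 counts in Kir P0, and 0, 0 and 1 counts in WT P21 against 48, 66, 80 and 65 counts in WT P0. Per gene count, the ratio of P21 to P0 was 0.0109 in Kir (95% exact interval 0.00131 to 0.0398) and 0.00467 in WT (0.000118 to 0.0263), intervals that cover counting error only. At its highest, in 1 Kir P0 library, Sult1c2 reached 7.41 TPM, so it was a minor member even there.

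**Figure D4:**
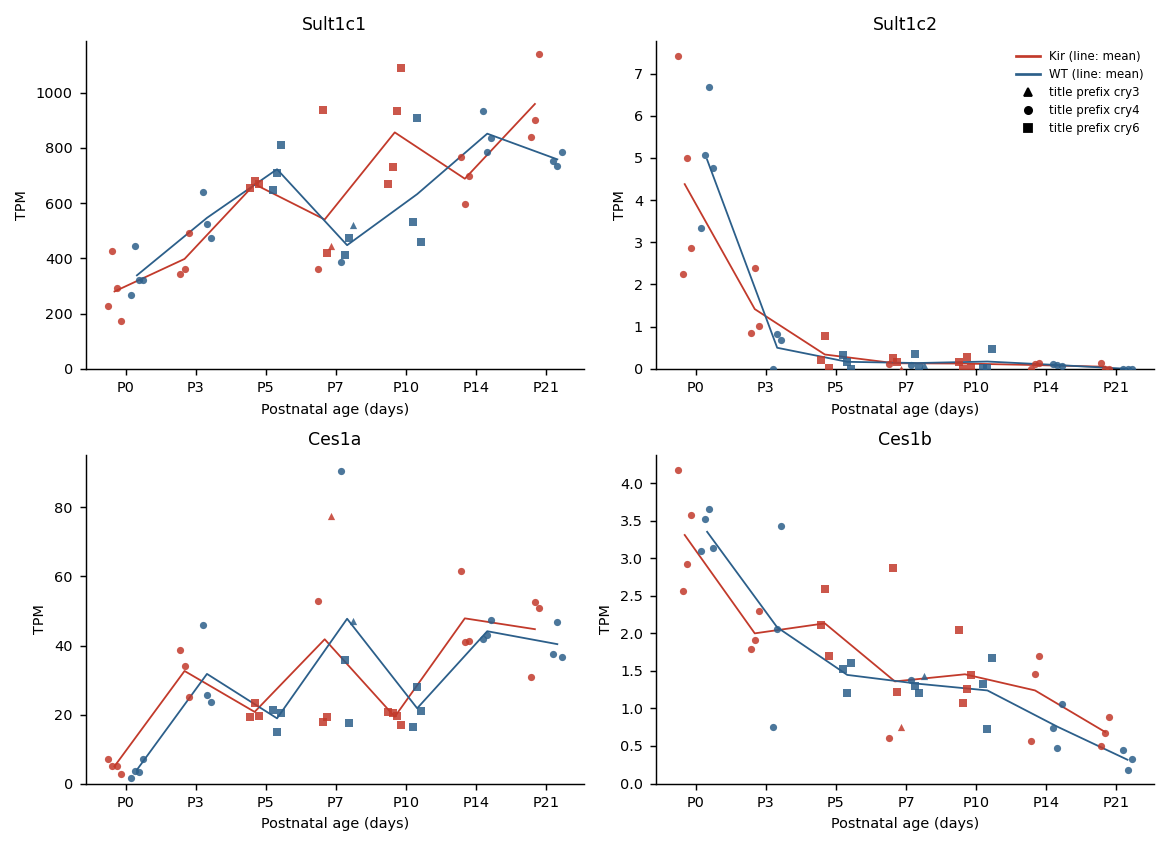
TPM of 2 pairs of neighbouring genes in every library by postnatal age: Sult1c1 and Sult1c2 on chromosome 17, Ces1a and Ces1b on chromosome 8 (Kir left of WT; lines join group means; symbols give the title prefix). Sult1c2 and Ces1b fall with age while Sult1c1 and Ces1a rise, and Ces1a lies low in the cry6 libraries.

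The mean level of Sult1c2 was already lower at P3. It averaged 1.42 TPM in Kir P3 and 4.38 TPM in Kir P0, and 0.503 TPM in WT P3 and 4.96 TPM in WT P0. Every WT P3 library lay below every WT P0 library. In Kir the ages overlapped, with up to 2.38 TPM at P3 and as little as 2.25 TPM at P0. Sult6b1 showed the steepest rise of the family, with 59.2, 64.3 and 36.4 TPM in Kir P21 against 4.73, 3.41, 2.34 and 1.67 TPM in Kir P0. In WT it had 28.9, 34.8 and 63.1 TPM at P21 against 2.34, 3.13, 2.58 and 4.51 TPM at P0. Sult6b1 rose by 3.87 ± 0.35 on the log2 scale in Kir (edgeR, adjusted p = 4.54e-11) and by 3.50 ± 0.35 in WT (adjusted p = 3.67e-10).

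A run of 3 sulfotransferases lies beside Ugt2a1 on chromosome 5, and its members did not move alike. Sult1d1, which sulfates catecholamines in mouse, averaged 235 ± 15.9 TPM in Kir P21 and 101 ± 47.6 TPM in Kir P0, and 297 ± 80.0 TPM in WT P21 and 104 ± 27.0 TPM in WT P0. It rose by 1.22 ± 0.27 in Kir (edgeR, adjusted p = 0.000302) and by 1.27 ± 0.27 in WT (adjusted p = 0.000185). Sult1e1, the oestrogen sulfotransferase, averaged 68.5 ± 5.0 TPM in Kir P21 and 72.5 ± 31.0 TPM in Kir P0, and 71.2 ± 2.59 TPM in WT P21 and 72.2 ± 22.7 TPM in WT P0. Its log2 fold change was -0.15 ± 0.23 in Kir and -0.10 ± 0.23 in WT and did not pass. Sult1b1 had log2 fold changes of 0.58 ± 0.26 in Kir and 0.59 ± 0.26 in WT, just short of the threshold (adjusted p = 0.0638 and 0.0578); on the TPM scale both passed limma's test (adjusted p = 0.031 and 0.0238).

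Sult1a1, the general phenol sulfotransferase, fell. It measured 18.3, 20.5 and 13.5 TPM in Kir P21 against 33.3, 24.5, 32.1 and 24.98 TPM in Kir P0, and 8.01, 9.41 and 18.1 TPM in WT P21 against 19.6, 40.5, 38.2 and 30.0 TPM in WT P0. The log2 fold change was -0.89 ± 0.23 in Kir (edgeR, adjusted p = 0.00166) and -1.43 ± 0.24 in WT (adjusted p = 5.53e-06). Sult5a1 fell by 1.40 ± 0.40 in Kir and by 1.35 ± 0.40 in WT, and the Kir call was lost without Kir P0 replicate 4 (-0.92, adjusted p = 0.0517). Sult2b1, which sulfates cholesterol, fell by 0.92 ± 0.21 in WT (adjusted p = 0.000439) and had a log2 fold change of -0.27 ± 0.20 in Kir (adjusted p = 0.284).

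Of the Ces1 carboxylesterases on chromosome 8 that edgeR tested, Ces1a, Ces1d, Ces1e, Ces1f and Ces1h rose and Ces1b fell, while Ces1c and Ces1g, at 0.153 and 0.135 TPM on average, were too low to test. Ces1d measured 524, 617 and 414 TPM in Kir P21 against 199, 230, 224 and 173 TPM in Kir P0, and 428, 454 and 483 TPM in WT P21 against 162, 259, 162 and 201 TPM in WT P0. It rose by 1.22 ± 0.15 on the log2 scale in Kir (edgeR, adjusted p = 2.16e-08) and by 1.16 ± 0.15 in WT (adjusted p = 5.7e-08). Ces1a measured 30.8, 52.6 and 50.8 TPM in Kir P21 against 7.16, 5.07, 5.06 and 2.72 TPM in Kir P0, and 37.6, 46.9 and 36.7 TPM in WT P21 against 1.60, 3.75, 3.41 and 7.10 TPM in WT P0. Its log2 fold change was 3.02 ± 0.31 in Kir (adjusted p = 7.72e-10) and 3.11 ± 0.31 in WT (adjusted p = 5.67e-10). Ces1e averaged 42.0 ± 2.93 TPM in Kir P21 and 7.54 ± 2.04 TPM in Kir P0, and 37.1 ± 4.21 TPM in WT P21 and 7.65 ± 1.0 TPM in WT P0. Ces1f averaged 20.8 ± 3.02 TPM in Kir P21 and 4.41 ± 1.05 TPM in Kir P0, and 24.2 ± 8.13 TPM in WT P21 and 5.07 ± 0.213 TPM in WT P0. Ces1h averaged 4.53 ± 0.706 TPM in Kir P21 and 0.565 ± 0.331 TPM in Kir P0, and 3.79 ± 0.346 TPM in WT P21 and 0.383 ± 0.200 TPM in WT P0. Ces1e rose by 2.40 ± 0.15 in Kir and 2.20 ± 0.15 in WT, Ces1f by 2.09 ± 0.30 and 2.16 ± 0.30, and Ces1h by 2.59 ± 0.32 and 3.18 ± 0.35.

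Ces1b, which lies next to Ces1a, measured 0.50, 0.67 and 0.89 TPM in Kir P21 against 4.17, 2.56, 2.93 and 3.58 TPM in Kir P0, and 0.44, 0.18 and 0.33 TPM in WT P21 against 3.10, 3.52, 3.65 and 3.14 TPM in WT P0. Summed over libraries these levels rest on 32 counts in Kir P21 against 216 in Kir P0, and on 14 counts in WT P21 against 212 in WT P0. Ces1b fell by 2.30 ± 0.49 on the log2 scale in Kir (edgeR, adjusted p = 0.000208) and by 3.58 ± 0.55 in WT (adjusted p = 1.92e-06). The Ces2 genes on the same chromosome were low throughout. Ces2g averaged 2.29 ± 0.747 TPM in Kir P21 and 7.16 ± 4.25 TPM in Kir P0, and 2.21 ± 0.901 TPM in WT P21 and 6.55 ± 2.53 TPM in WT P0. It fell by 1.81 ± 0.51 on the log2 scale in Kir and by 1.65 ± 0.51 in WT (edgeR, adjusted p = 0.00347 and 0.00675). Ces2b averaged 0.510 ± 0.160 TPM in Kir P21 and 2.48 ± 0.987 TPM in Kir P0, and 0.780 ± 0.383 TPM in WT P21 and 1.69 ± 0.329 TPM in WT P0. Ces2b fell by 2.16 ± 0.39 in Kir and by 1.28 ± 0.38 in WT (edgeR, adjusted p = 2.2e-05 and 0.00472).

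Ces1a differed between title prefixes at a single age. At P7 it ranged from 17.4 to 35.9 TPM in the 4 cry6 libraries, from 52.8 to 90.6 TPM in the 2 cry4 libraries and from 47.1 to 77.4 TPM in the 2 cry3 libraries, without overlap of cry6 with the others. In the fit over all libraries 4 of 43 members differed between cry6 and cry4, against 13.6% of all genes. Only P7 holds libraries of both prefixes, so the size of this contrast is set by the 4 cry6 and 2 cry4 libraries of P7. Ces1a was lower in cry6 by 1.35 ± 0.31 on the log2 scale, Gsta2 by 1.52 ± 0.37 and Ugt1a7c by 1.44 ± 0.33, and Sult1c1 was higher by 0.90 ± 0.31 (edgeR, adjusted p = 0.0037, 0.0063, 0.0044 and 0.049). At P7 Sult1c1 ranged from 410.6 to 935.7 TPM in the cry6 libraries and from 360.1 to 386.8 TPM in the cry4 libraries. Its highest cry6 value, in Kir P7 replicate 2, is among those flagged below as far from the rest of their group. The dips of Ces1a at P5 and P10 in both genotypes fall at the ages that hold cry6 libraries only.

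Part of the change was present by P3. Between P3 and P0, 18 of 43 members passed in WT, 14 higher and 4 lower, against 20.5% of all genes (8.61% higher and 11.9% lower). In Kir, 12 of 43 passed, 11 higher and 1 lower, against 17.8% of all genes (7.85% higher and 9.94% lower). Ces1a alone rose by 2.61 ± 0.31 in Kir and by 2.77 ± 0.31 in WT over those 3 days (edgeR, adjusted p = 4.8e-07 and 1.7e-07). Between P14 and P3, 10 of 43 members passed in each genotype, against 25.6% of all genes in Kir and 22.6% in WT. Ugt1a7c and Sult1d1 were called in that interval in both genotypes and not between P3 and P0 in either: Ugt1a7c rose by 1.81 ± 0.35 in Kir and 2.13 ± 0.36 in WT, and Sult1d1 by 1.25 ± 0.29 in Kir and 1.30 ± 0.29 in WT. Between P21 and P14 no member was called in either genotype, against 0.472% of all genes in Kir and 0.0452% in WT. At an unadjusted p under 0.05 edgeR gave 4 members in each genotype, a level at which all genes were not counted. With limma on TPM no member was called either, against 0.222% of genes in Kir and 0.0775% in WT.

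Genes of neighbouring steps were counted from lists for comparison, beside 22.9% higher and 25.9% lower of all genes in Kir and 24.0% higher and 26.8% lower in WT. Of 17 tested cytochrome P450 genes and their partners, 12 were higher and 2 lower at P21 in Kir, and 11 higher and 3 lower in WT. They include Cyp2g1, an olfactory P450, which rose by 2.87 ± 0.24 in Kir and 2.73 ± 0.24 in WT. Of 24 other phase I enzymes, 14 were higher and 2 lower in Kir, and 12 higher and 4 lower in WT. Of 15 other conjugating enzymes, 8 were higher and 2 lower in Kir and 7 higher and 2 lower in WT, among them the microsomal glutathione transferase Mgst1 (1.12 ± 0.16 in Kir, 1.10 ± 0.16 in WT). Of 20 genes that supply the cofactors, 6 were higher and 6 lower in Kir, and 5 higher and 8 lower in WT. Ugdh, which makes UDP-glucuronate, rose by 1.08 ± 0.17 in Kir and 1.01 ± 0.17 in WT, whereas Papss1, which makes PAPS, fell by 0.57 ± 0.10 in both, and Gclc, the catalytic subunit of glutathione synthesis, fell by 0.67 ± 0.12 in Kir and by 0.78 ± 0.12 in WT. Of 15 transporters, 7 were higher and 4 lower in Kir and 6 higher and 3 lower in WT.

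Among 15 regulators, 2 were higher and 7 lower at P21 in each genotype. Nfe2l2 rose by 0.47 ± 0.13 in Kir and 0.78 ± 0.13 in WT, and Nr1i2, the pregnane X receptor, fell by 2.19 ± 0.62 in Kir and by 3.00 ± 0.65 in WT. Of 12 NFE2L2 targets outside the set, 7 were higher and 2 lower in Kir and 3 higher and 2 lower in WT.

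Cell type markers changed over the same interval. Of 11 sustentacular markers, 7 were higher and 2 lower at P21 in Kir, and 7 higher and 3 lower in WT. Cyp2g1, Cyp1a2, Cyp2a5 and Cbr2 among them are also in the enzyme lists counted above, so these counts share genes. The summed level of the 11 sustentacular markers ranged from 20370 to 21200 TPM in Kir P21 and from 3881 to 6525 TPM in Kir P0. In WT it ranged from 16450 to 19630 TPM at P21 and from 3646 to 5784 TPM at P0. Of 10 Bowman's gland markers, 7 were higher and 1 lower in each genotype, and of 10 mature olfactory neuron markers all 10 were higher in each. Of 6 endothelial markers all 6 were lower in each. The part of these shifts in the members' changes was not tested. Hepatocyte markers, a check for liver RNA, summed to 4.51 TPM or less in these 4 groups.

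The comparison of Kir with WT asks whether the set differed between mice of the strain labels given above. The Kir label names OIVT beside the channel and gives no background strain. A difference between Kir and WT therefore cannot be assigned to the channel alone. Averaged over the 7 ages, 1 of 43 tested members (2.33%) passed, against 10.5% of all genes tested (3.12% higher and 7.43% lower). That member was Sult4a1, a sulfotransferase best known from brain neurons. It was lower in Kir by 0.23 ± 0.07 on the log2 scale (edgeR, adjusted p = 0.0159). limma on TPM gave -0.24 ± 0.07 and an adjusted p of 0.0516, and limma called none of 52 members, against 4.69% of genes.

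The other tested members differed little on average. Their log2 differences ran up to 0.52 in Ces2f, with standard errors from 0.04 to 0.54, and the median of the 43 was 0.07 beside 0.01 over all genes. In size, 33 of the 43 lay under 0.25. Ugt2a1 differed by -0.02 ± 0.10 in log2(TPM + 1) and Gstm1 by -0.01 ± 0.09 in log2 fold change. Gstt1, Gstt2, Gsta2, Sult1a1, Ugt1a6b and Ces1b were higher in Kir at an unadjusted p under 0.05 and did not pass the adjustment. The share of all genes at that unadjusted p was not counted, so these members stand without a background. Gstt1 differed by 0.24 ± 0.09 (edgeR, adjusted p = 0.0872) and Gstt2 by 0.20 ± 0.07 (adjusted p = 0.0714). At single ages no member was called at P0, P3, P5, P7, P10, P14 or P21, where 1.09%, 0.703%, 0.105%, 0.0903%, 3.13%, 1.17% and 0.743% of all genes were. No member had a genotype difference that changed with age, against 0.381% of genes.

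**Figure D5:**
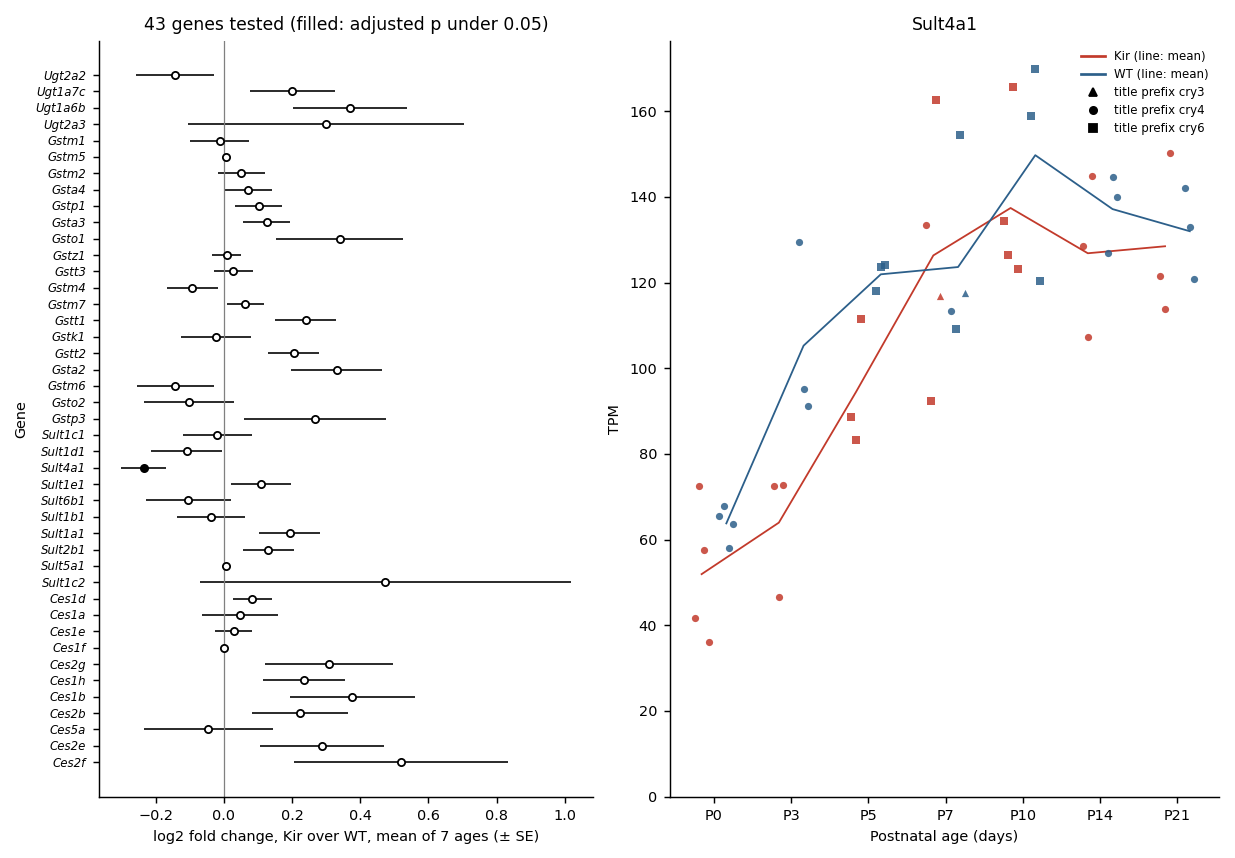
Left, log2 fold change of Kir over WT averaged over the 7 ages (± SE) from edgeR for the 43 tested members, without a bar for Gstm5, Sult5a1 and Ces1f, whose differences are near 0. Right, Sult4a1 TPM in every library by postnatal age (Kir left of WT; lines join group means), with every Kir library below every WT library at P3 and P5.

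By age, Sult4a1 was lower in every Kir library than in any WT library at P3 and P5, as were 7.99% and 9.14% of all genes at those ages. At P3 it measured 72.4, 46.6 and 72.8 TPM in Kir against 129, 95.2 and 91.3 TPM in WT, and at P5 88.6, 83.3 and 112 TPM in Kir against 118, 124 and 124 TPM in WT. At P0 it measured 41.6, 72.6, 57.6 and 36.0 TPM in Kir against 65.5, 67.8, 58.1 and 63.8 TPM in WT, and at P21 121, 114 and 150 TPM in Kir against 142, 133 and 121 TPM in WT, where the groups overlapped. The log2 fold change was -0.38 ± 0.16 at P0, -0.59 ± 0.19 at P3, -0.32 ± 0.18 at P5, -0.05 ± 0.16 at P7, -0.24 ± 0.17 at P10, -0.07 ± 0.18 at P14 and 0.01 at P21. No single age passed (edgeR, adjusted p = 0.13 at P3, the smallest), and the test of a change with age did not pass either (unadjusted p = 0.224).

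Sult4a1 also rose with age, by 1.28 ± 0.17 on the log2 scale in Kir (edgeR, adjusted p = 1.8e-07) and by 0.88 ± 0.17 in WT (adjusted p = 5.71e-05). Mature olfactory neuron markers were lower in Kir as well: averaged over ages all 10 were called, with a median log2 difference of -0.42, and at P0 they summed to between 544 and 1152 TPM in Kir and between 955 and 1375 TPM in WT. Of 7 tested brain neuron markers 2 were lower in Kir and none higher, with a median of -0.35, and of 11 sustentacular markers none was called, with a median of 0.05. All 6 macrophage markers were higher in Kir. The part of these shifts in the difference of Sult4a1 was not tested. The Sult4a1 call was lost in the P0, P3, P14 and P21 libraries alone (-0.26 ± 0.09, edgeR, adjusted p = 0.0954). In those same libraries with the replicate number as a block it was lost too (-0.28 ± 0.09, edgeR, adjusted p = 0.0949). Without the 5 Kir libraries of lowest Kcnj2 the call was also lost, at a difference of -0.22.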

How the data were processed

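RNA was extracted in TRIzol and made into polyA libraries with an Illumina mRNA kit, per the labels' protocols. The submitters' processing notes name bcl2fastq 2.18, STAR 2.6.1c, RSEM and the mm10 build; the sources used here give neither the order of these tools, the strand setting nor the annotation. The authors deposited whole-number gene counts and RSEM TPM values for 54532 genes in 47 libraries. The deposited TPM values are relative to each library's total and scaled for transcript length, while 4 lines of the count tables that name no gene were left out (2.91% to 3.80% of reads ambiguous, 5.17% to 20.58% multimapping, 3.79% to 12.28% outside features and 1.31% to 33.49% unmapped). Depth was 8107547 to 30385151 gene counts per library. No 2 libraries were identical, and all 57 pairs within groups differed by more than counting noise.

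The quasi-likelihood fit of the counts, in edgeR 4.0.16 under R 4.3.3, covered all libraries, with TMM factors, its filter on low counts, and genotype by age plus title prefix as terms. log2(TPM + 1) was fitted with limma 3.58.1 in the same design, for genes at a mean of at least 0.1 TPM; a fold change on that scale understates the change of low genes. Standard errors from edgeR are the fold change divided by the root of its F value. Calls are at a Benjamini-Hochberg adjusted p under 0.05. The edgeR fit was run on simulated counts with the same spread for every gene and no prefix effect. That setting is simpler than the data, so its outcome is not used here. The limma fit was not tested on simulated data. The members and lists were chosen with earlier results of these data known. Full values were given for the 3 most abundant members of each family, the 10 largest called changes between P21 and P0 in each genotype at 1 CPM or more, and members called between genotypes. Other members were described after their values were seen. Coordinates and overlaps are from GENCODE M21 and promoters from RefSeq, both on GRCm38. Replicate numbers were not used for pairing, since deviations of same-numbered libraries did not correlate above 0.1 in every pair; the 3 genotype pairs at P3 did (0.242 to 0.266).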

Additional observations from a re-analysis of the deposited data

Results flagged for a closer look

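In each group of 4 libraries, 41 members with a mean of at least 1 TPM and the 4 family sums were checked for a library far from the other 3, by a test that chance meets in about 1 of 20 groups. Of 225 such checks, 10 met it. No explanation of these values was tested.

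Gsto1 stood out at P0 in both genotypes: Kir P0 replicate 4 had 330.32 TPM beside 78.71 to 95.57 TPM in the other 3 Kir P0 libraries, and WT P0 replicate 3 had 201.59 TPM beside 69.44 to 89.96 TPM. That WT library is the one whose title and stage label differ.

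At P7, Kir replicate 2 had 935.67 TPM of Sult1c1 beside 360.14 to 445.91 TPM, 5.16 TPM of Ugt1a6b beside 2.06 to 2.38 TPM, and a summed Sult level of 1348.39 TPM beside 765.06 to 793.63 TPM. Kir P7 replicate 3 had 15.76 TPM of Sult2b1 beside 9.63 to 10.17 TPM. WT P7 replicate 3 had 385.78 TPM of Gstm2 beside 263.05 to 280.71 TPM, 3.4 TPM of Ugt1a6a beside 8.41 to 9.16 TPM, and a summed Ugt level of 3053.03 TPM beside 1984.79 to 2126.43 TPM. These 3 libraries carry the prefix cry6, as does 1 further WT P7 library that did not stand apart. WT P0 replicate 2 had a summed Sult level of 815.66 TPM beside 571.12 to 605.63 TPM.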

How the results depend on the processing

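Alternatives covered scaling, filters, DESeq2, log2(TPM + 1) and log2(TPM + 0.1), the title prefix, the conflicting stage label, doubted libraries and each library left out in turn; a covariate for Xist above 1 TPM was chosen after seeing the data. No result changed direction while called. Without the 5 Kir libraries of lowest Kcnj2, which leaves 1 Kir P21 library assumed to vary like the other groups, 4 members in place of 8 were lower in Kir P21 than in Kir P0; Ces1b (-1.72, adjusted p = 0.0706) and Gstm1 (0.78, adjusted p = 0.0681) then missed the threshold. Leaving out 1 library at a time gave 21 to 26 members higher and 6 to 8 lower in Kir P21, and 19 to 22 higher and 8 to 9 lower in WT P21. For Kir against WT averaged over ages, where edgeR called no member higher, DESeq2 called 2, the Xist covariate 1, and leaving out 1 library 0 to 2. Gstt1 was among them, at 0.25 with DESeq2 (adjusted p = 0.0335), 0.27 with the Xist covariate (0.0462) and up to 0.30 without WT P0 replicate 4 (0.0102). Of the 47 fits with 1 library left out, 9 called a member higher and 3 of these called Gstt1. The remaining higher calls were of other members. The single lower call, Sult4a1, held with each library left out (1 to 1) and became 0 in the P0, P3, P14 and P21 libraries, without the 5 Kir libraries, on log2(TPM + 1), on log2(TPM + 0.1) and with the replicate block. With the replicate block, which was fitted in the P0, P3, P14 and P21 libraries only, Sult4a1 differed by -0.28 ± 0.09 (edgeR, adjusted p = 0.0949). Same-numbered libraries correlated from -0.303 to 0.382, over 0.1 in 7 of 19 pairs, and 7 matched their own number best, so the numbers were not taken as pairs. The causes of these changes were not tested. Counts limit Sult1c2, Ces1b and the 9 members too low for edgeR.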
